A study of Rattus norvegicus with 24 samples.

Results

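The genes described here are 8 cathepsins, Ctsb, Ctsc, Ctsd, Ctsh, Ctsk, Ctsl, Ctss and Ctsz, and Cst3, which encodes the cathepsin inhibitor cystatin C, in the injured rat spinal cord. They were taken by name, and each was read from the array probe set that carries its symbol alone, or, for Ctsc and Ctsl, which have a second such probe set, from the one with the higher mean over all arrays. This gave 9 of the 14218 genes measured, and 11 of the 20832 probe sets with a single symbol. The series holds 24 female Wistar rats, 1 to an array. In 20 of them the cord was exposed by removing the laminae of T6 to T8 and was compressed at T7 by an aneurysm clip with a force of 35 g, left closed for 1 min. These were killed on days 1, 3, 7, 14 and 56 post-injury, 4 rats on each. Per the paper, the sham controls were laminectomized as well. The 4 sham controls were labelled as sham, with no day stated, and every injured group was set against these same 4 rats. The paper lists 4 sham and 4 injured rats per time point, which can be read as more sham rats than these. Total RNA came from a 5 mm piece of cord around the epicenter, and values are log2 expression values on an Affymetrix rat genome array, so that a difference of 1 is a doubling.

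Cathepsins are proteases that are made as inactive proforms, routed to the lysosome and cut into active enzymes in its acid lumen. Most are cysteine proteases and cathepsin D is an aspartic protease. Phagocytes such as microglia and macrophages hold large amounts of them and can also release them, and cystatin C is a secreted inhibitor that blocks the cysteine cathepsins outside the cell but not cathepsin D. In the healthy cord, cathepsins B, D and S and cystatin C are made by glia and neurons, and cathepsin K is best known from the osteoclast, where it degrades bone collagen.

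All 9 transcripts were detected on all 24 arrays. The lowest value of any of them was 5.69, and the 27 control probe sets without a target in the sample did not exceed 3.50 on any array. At the other end, the highest value on an array was between 15.9 and 16.1, and Cst3, at up to 15.48, and Ctsb, at up to 15.26, came close to it, where changes can be understated. Some rats stood apart in many of these genes together. Sham replicate 1 was the lowest sham rat for 7 of the 9 genes and sham replicate 4 the highest for 7, while day 7 replicate 3 was the lowest of its group for 8 and day 7 replicate 2 the highest for 7. No call of these 9 transcripts against sham changed when any single array, or sham replicate 1 and day 7 replicate 3 together, was left out.

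RefSeq promoter windows of the rat assembly GRCr8 were matched for 8 of the 9 genes, all but Ctsb. The 250 bases upstream of the start are printed 5′ to 3′ on the strand of the gene for Ctsd, the aspartic protease, for Ctsh and Ctss, which had the most similar course of any pair of the 9, and for Ctsk, which rose most at late days and starts on the same strand of chr2 as Ctss. Capitals mark 2 short motifs that were searched on both strands of each window and of its next 50 bases. One is the E-box CACGTG, the core of the element bound by the lysosomal regulator TFEB and its relatives. The other is the purine box GAGGAA, or TTCCTC on the opposite strand, a core bound by the myeloid factor PU.1.
Ctsd, chr1:206968822-206969071, minus strand: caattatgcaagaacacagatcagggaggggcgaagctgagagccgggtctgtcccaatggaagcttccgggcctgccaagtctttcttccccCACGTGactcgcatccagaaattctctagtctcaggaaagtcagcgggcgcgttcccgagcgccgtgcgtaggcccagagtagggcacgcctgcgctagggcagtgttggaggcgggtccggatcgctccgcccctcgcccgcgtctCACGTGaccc
Ctsh, chr8:99488506-99488755, plus strand: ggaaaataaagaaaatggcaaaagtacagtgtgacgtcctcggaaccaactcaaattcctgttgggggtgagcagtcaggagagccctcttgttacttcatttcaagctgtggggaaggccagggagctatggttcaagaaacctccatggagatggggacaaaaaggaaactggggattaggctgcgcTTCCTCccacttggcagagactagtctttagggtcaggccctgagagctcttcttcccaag
Ctss, chr2:185775146-185775395, plus strand: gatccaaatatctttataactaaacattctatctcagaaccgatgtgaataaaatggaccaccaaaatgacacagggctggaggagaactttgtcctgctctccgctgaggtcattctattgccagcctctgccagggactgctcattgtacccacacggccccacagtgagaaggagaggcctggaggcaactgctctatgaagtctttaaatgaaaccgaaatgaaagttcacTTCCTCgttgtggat
Ctsk, chr2:185747298-185747547, plus strand: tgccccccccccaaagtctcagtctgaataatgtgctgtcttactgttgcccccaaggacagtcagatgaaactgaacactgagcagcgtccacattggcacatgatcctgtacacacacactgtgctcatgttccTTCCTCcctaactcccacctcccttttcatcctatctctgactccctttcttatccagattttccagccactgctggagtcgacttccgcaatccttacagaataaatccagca
The E-box was found in 1 of the 8 windows, that of Ctsd, at positions -157 and -10 from the start, and in 6.42% of all 33469 rat promoters of the same length. The purine box was found in 5 of the 8, those of Ctsc, Ctsh, Ctsk, Ctss and Ctsz, and in 27.6% of all promoters. In Ctsk it began at -114, in Ctsh at -61 and again at +37, beyond the printed bases, and in Ctss at -15. The windows of Ctsl and Cst3 held neither. These matches describe the letters of the windows and are no evidence of binding.

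Against sham, the cathepsins were up-regulated at most times and cystatin C was down-regulated early. On day 1, 7 of the 9 genes were higher than in sham, against 28.9% of all genes, and 1, Cst3, was lower, against 20.4%. On day 3, 4 were higher and 3 lower, where 23.7% and 16.7% of all genes were. On each of days 7, 14 and 56 all 8 cathepsins were higher and no member was lower. Of all genes, 23.5%, 15.8% and 16.1% were higher on these days and 30%, 16.3% and 15.9% were lower. The median change of the 9 was 2.06 on day 1, 0.14 on day 3, 1.94 on day 7, 1.66 on day 14 and 1.70 on day 56 on the log2 scale, and the median over all genes lay between -0.05 and 0.03 on these days. In a piece of tissue, more RNA per cell and more cells of a kind cannot be told apart.

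**Figure D1:**
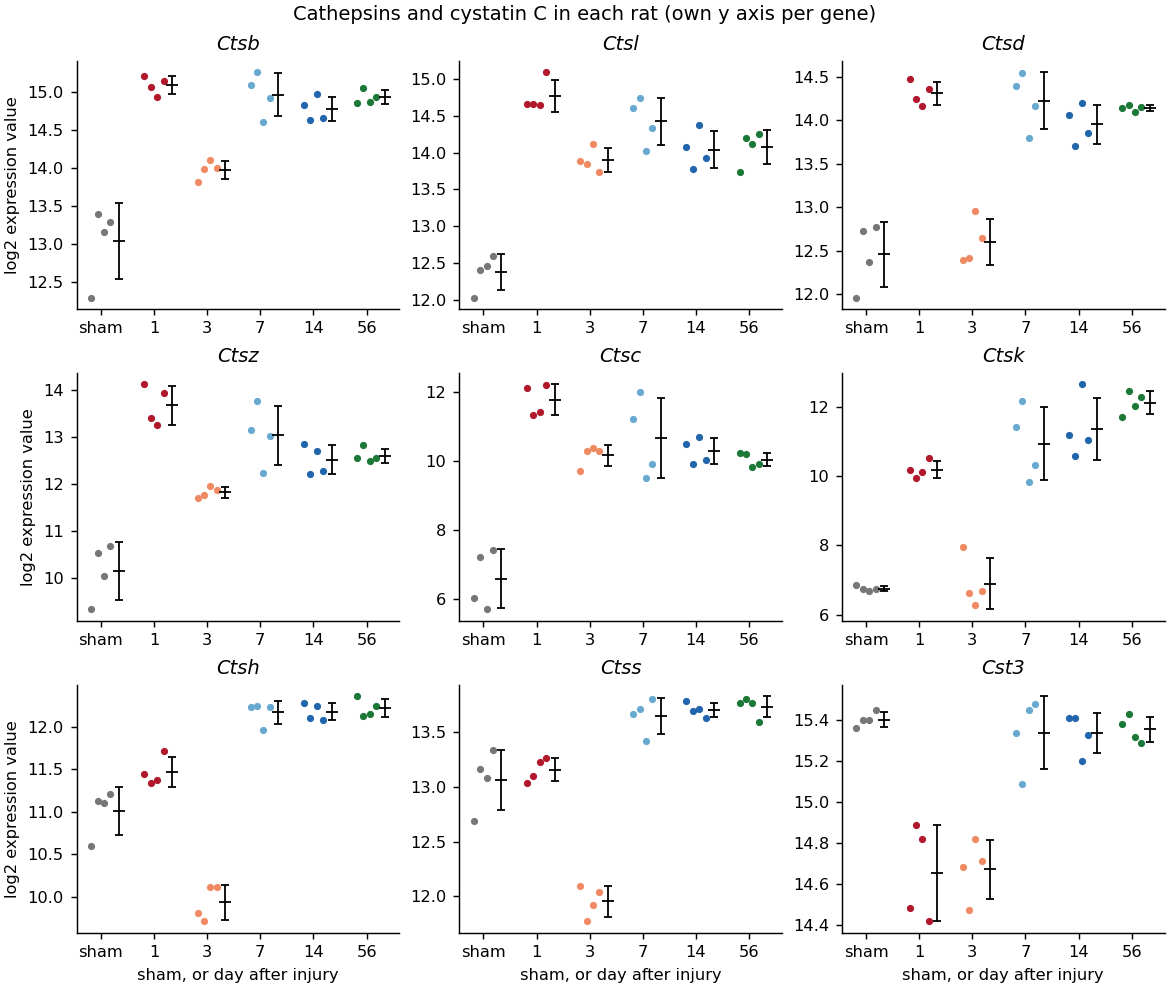
Log2 expression values of the 9 genes in each of the 24 rats (points), with the mean and SD of each group of 4 (bars), for sham and days 1, 3, 7, 14 and 56 post-injury, on a separate y axis for each gene. Day 3 lies below day 1 for all 8 cathepsins, and Cst3 lies below sham on days 1 and 3 and overlaps the sham range later, where 6 of the 12 rats read below the lowest sham rat.

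Of the endopeptidases, which cut within protein chains, Ctsb and Ctsl were higher than sham on every day. Ctsb encodes cathepsin B, which can also trim peptides from the carboxyl end. It read 12.29 to 13.39 in sham rats, 14.94 to 15.21 on day 1, 13.82 to 14.11 on day 3 and 14.60 to 15.26 over the 3 later days. No injured rat reached down into the sham range on any day. Its change was 2.06 ± 0.18 (SE, n = 4 against 4) on day 1, 0.95 on day 3 and 1.94 on day 7, with adjusted p-values of 2.4e-08, 0.00025 and 1.5e-07.

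Ctsl, which encodes cathepsin L, another broad endopeptidase, read 12.03, 12.41, 12.46 and 12.60 in sham rats and 14.66, 14.66, 14.65 and 15.09 on day 1. On day 3 it read 13.89, 13.85, 14.12 and 13.74, and on day 7 it read 14.60, 14.74, 14.02 and 14.33. On days 14 and 56 its values lay between 13.74 and 14.37, again above every sham value and below every day 1 value. The change was largest on day 1, at 2.39 ± 0.17 (adjusted p = 2.5e-09), and was 1.53 on day 3, 2.05 on day 7, 1.66 on day 14 and 1.70 on day 56. The second Ctsl probe set gave 2.66, 2.09, 2.18, 1.77 and 1.55 on the same days, all higher than sham.

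Ctss encodes cathepsin S, an endopeptidase that stays active at neutral pH and cuts the invariant chain in antigen-presenting cells. Sham rats read 12.69, 13.16, 13.08 and 13.34 and day 1 rats 13.04, 13.10, 13.23 and 13.26, and these ranges overlapped. The day 3 rats read 12.09, 11.77, 11.92 and 12.04, all below sham. From day 7 the values were 13.42 to 13.80, all above sham. The change was 0.09 on day 1 (95% interval -0.14 to 0.31, adjusted p = 0.64), -1.12 ± 0.11 on day 3 (adjusted p = 1.3e-07), a 2.17-fold lower level, and 0.58, 0.64 and 0.66 on days 7, 14 and 56 (adjusted p = 0.00025, 0.00015 and 9.9e-05).

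Ctsk, the collagen-degrading cathepsin, had the largest late rise of the 9. In sham rats it read 6.84, 6.73, 6.67 and 6.74, the tightest sham group after Cst3. The day 1 rats read 10.17, 9.93, 10.12 and 10.53. On day 3 the values were 7.96, 6.61, 6.28 and 6.69, which spanned the sham range, with replicate 1 alone clearly above it. They were 11.42, 12.17, 9.84 and 10.32 on day 7, 11.18, 10.58, 12.65 and 11.05 on day 14, and 11.72, 12.47, 12.02 and 12.28 on day 56. Transcript levels were thus 10.9-fold above sham on day 1, not called on day 3 (0.14 ± 0.45, adjusted p = 0.81), and 41.5-fold above sham on day 56. The spread between rats was widest on days 7 and 14, with SDs of 1.05 and 0.89 against 0.33 on day 56.

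The exopeptidases, which trim amino acids from the ends of chains, differed widely in size of change. Ctsc encodes cathepsin C, a dipeptidyl peptidase that activates the granule proteases of leukocytes and mast cells. It read 6.01, 7.22, 5.69 and 7.41 in sham rats, 12.12, 11.33, 11.42 and 12.18 on day 1, and 9.70, 10.27, 10.37 and 10.29 on day 3. The later values ran from 9.50 to 11.99 on day 7, 9.90 to 10.68 on day 14 and 9.83 to 10.21 on day 56. The lowest injured rat was more than 2 log2 units above the highest sham rat. The change of 5.18 ± 0.45 on day 1, a 36.2-fold rise (adjusted p = 2.6e-08), was the largest of any of the 9 on that day, and 3.58, 4.07, 3.69 and 3.45 followed on days 3, 7, 14 and 56. The second Ctsc probe set gave 4.99, 3.26, 4.02, 3.43 and 3.30.

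Ctsz encodes the carboxypeptidase cathepsin Z. Its values were 9.33 to 10.68 in sham rats, 13.26 to 14.12 on day 1 and 11.70 to 11.96 on day 3, and 12.22 to 13.76 on days 7, 14 and 56. Its day 1 level was 11.6-fold that of sham, and no injured rat overlapped the sham group on any day. Ctsh, the aminopeptidase cathepsin H, changed against sham in both directions, and by less than Ctsc and Ctsz on every day. The sham rats read 10.60, 11.13, 11.10 and 11.21 and the day 1 rats 11.44, 11.34, 11.38 and 11.72. On day 3 the values were 9.81, 9.71, 10.11 and 10.11, and on day 7 they were 12.24, 12.25, 11.96 and 12.23. The 4 day 3 rats were all below sham and the other injured rats all above it. The changes were 0.46 ± 0.12 on day 1 (adjusted p = 0.0041), -1.07 on day 3 (adjusted p = 1.2e-06), a 2.11-fold lower level, and 1.16, 1.17 and 1.21 on days 7, 14 and 56.

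Ctsd, the aspartic protease, read 11.96, 12.73, 12.37 and 12.77 in sham rats and 14.47, 14.25, 14.17 and 14.36 on day 1. On day 3 it read 12.39, 12.42, 12.96 and 12.64, 3 of them inside the sham range. It read 13.70 to 14.55 on the later days, clear of sham, and the 4 day 56 rats lay between 14.10 and 14.18. The change was 1.85 ± 0.17 on day 1 (adjusted p = 6.7e-08), 0.14 on day 3 (95% interval -0.22 to 0.51, adjusted p = 0.50), 1.77 on day 7, 1.49 on day 14 and 1.68 on day 56. The window with 2 E-boxes printed above belongs to this gene.

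Cst3, the inhibitor, was lower than sham on days 1 and 3 and was not called on the later days. The sham rats read 15.36, 15.40, 15.40 and 15.45. The day 1 rats read 14.48, 14.89, 14.82 and 14.42, and the day 3 rats 14.68, 14.47, 14.82 and 14.71, all below every sham rat. On day 7 the values were 15.34, 15.09, 15.45 and 15.48, and on days 14 and 56 they lay between 15.20 and 15.43, overlapping sham. Cst3 was 1.68-fold lower than sham on day 1 (-0.75 ± 0.10, adjusted p = 3.7e-06) and 1.66-fold lower on day 3 (-0.73, adjusted p = 9.2e-06). Later changes were -0.06, -0.06 and -0.05, with 95% intervals that stayed between -0.27 and 0.16. Markers of astrocytes, a cell type that makes cystatin C, had their lowest sums on day 1. The summed level of 9 astrocyte markers, as log2, was 16.84 to 17.16 in sham rats, 15.30 to 16.11 on day 1, 16.23 to 16.33 on day 3 and 16.97 to 17.06 on day 56, with 8, 5, 6, 2 and 2 of the 9 lower than sham in time order. On days 7 and 14 the sum was 15.96 to 16.86 and 16.30 to 16.95, and Cst3 was not called. The lowest of these sums, in day 7 replicate 2 and day 14 replicate 3, were below or level with the day 3 rats. These 2 rats also had the lowest Cst3 of their groups, 15.09 and 15.20, which lay above every day 3 rat. Neuron and oligodendrocyte markers also read lower on day 1, at 12.74 to 13.84 and 16.22 to 16.71 against 16.28 to 16.74 and 17.18 to 17.27 in sham rats. The part of these cells in the Cst3 values was not tested.

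**Figure D2:**
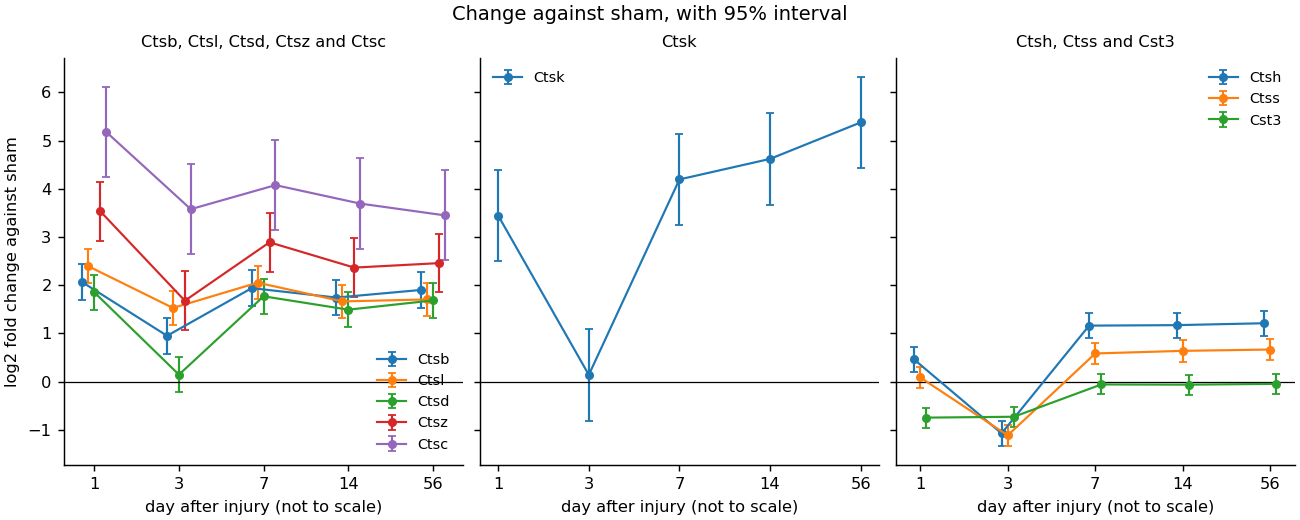
Log2 fold change against sham of each gene by day post-injury (points, joined for reading), with 95% intervals from the linear model, on equally spaced days that are not to scale. Ctsc and Ctsz were highest on day 1 and Ctsk on day 56, at 5.37, and Ctsh and Ctss were below 0 on day 3 and above it later.

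The comparisons between injured days show in which intervals the transcripts moved. Between day 1 and day 3, 8 of the 9 genes fell, against 18.3% of all genes. These were all 8 cathepsins, and Cst3 differed by 0.02. Ctsk fell most, by 9.87-fold (95% interval of the log2 change -4.25 to -2.35), followed by Ctsz at 3.62-fold, Ctsd at 3.27-fold and Ctsc at 3.04-fold. Ctsl fell least, by 1.82-fold (adjusted p = 0.00054), and its second probe set did not pass the threshold (-0.57, adjusted p = 0.062). Day 3 stood apart in other genes too. Of 11 neuron markers, 10 were higher on day 3 than on day 1, opposite to the cathepsins, and their summed level was 16.28 to 16.74 in sham rats, 12.74 to 13.84 on day 1, 15.37 to 15.95 on day 3 and 13.11 to 15.54 on day 7. The part of the cell makeup in the day 3 values was not tested.

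Between day 3 and day 7, 8 genes rose, against 12.8% of all genes, and Ctsc was the one that did not (0.50, adjusted p = 0.51). Ctsk rose by 4.05, Ctsh by 2.24, Ctss by 1.70, Ctsd by 1.62, Ctsz by 1.21 and Ctsb by 0.99 on the log2 scale, and Cst3 by 0.67. The rise of Ctsl was 0.53 (adjusted p = 0.023). It did not pass with its second probe set (0.09), with both probe sets averaged (0.31), with the 2 groups fitted alone (0.53, adjusted p = 0.072), or without day 3 replicate 2 (0.51), day 3 replicate 4 (0.47), day 7 replicate 1 (0.47) or day 7 replicate 2 (0.42).

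Day 7 differed from day 1 in 3 genes, all higher, where 6.15% of all genes were higher and 15% lower. Ctsh was 0.70, Ctss 0.50 and Cst3 0.69 higher. With only these 2 groups in the fit, Ctss and Cst3 did not pass (adjusted p = 0.063 and 0.072). Without day 7 replicate 2, Ctsc (-1.55) and Ctsz (-0.89) were also called, as lower than on day 1.

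From day 7 on, limma called none of the 9 in any interval. The call was made for 21.8% of all genes as higher and 6.18% as lower between days 7 and 14, for 0.19% and 0.148% between days 14 and 56, and for 1.99% and 4.78% between days 7 and 56. At an unadjusted p under 0.05 there were 1, 0 and 2 members in these intervals, and 1, 0 and 1 by the methods' t-test. The Ctsk rise of 1.18 from day 7 to day 56 had a 95% interval of 0.23 to 2.13 (adjusted p = 0.14) and passed under a single alternative, without day 7 replicate 2 (1.59). Ctsl and Ctsz were called lower on day 14 than on day 7 when day 7 replicate 3 was left out (-0.52 and -0.80), and Ctsl also without day 14 replicate 3 (-0.50). Across the whole period, day 56 exceeded day 1 for Ctsk (1.93), Ctsh (0.75), Ctss (0.58) and Cst3 (0.70), where 11.1% of all genes were higher. It was below day 1 for Ctsc (-1.73), Ctsz (-1.08) and Ctsl (-0.69), where 21.2% of all genes were lower. Ctsb (-0.16, 95% interval -0.53 to 0.21) and Ctsd (-0.17, -0.53 to 0.19) were not called.

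Each cathepsin was also set against Cst3 within each rat, as the log2 value of the cathepsin minus that of Cst3, which no scaling of an array can shift. The difference says whether the 2 transcripts changed unequally and not which is more abundant. For Ctsd, which cystatin C does not inhibit, it is a comparison of transcripts alone. In exact two-sided permutation tests of 4 against 4 rats, adjusted over the 40 tests, 37 differences were called, all above their sham mean. Each had an exact permutation p = 0.0286, the smallest these tests can give, and adjusted p = 0.0309. All 8 cathepsins gained on Cst3 on days 1, 7, 14 and 56, and 5 did on day 3. Cst3 itself changed by -0.75 on day 1 and -0.73 on day 3, so a gene that kept its level gained that much. The share of all genes that gained on Cst3 was not counted. The largest gains were 5.93 for Ctsc on day 1 (SD 0.69 in injured and 0.84 in sham rats, n = 4 each) and 5.42 for Ctsk on day 56 (SD 0.32 and 0.10). Ctss, which did not differ from sham on day 1 by itself, gained 0.83 on Cst3 then, with no overlap between the groups. Ctsd, which differed from sham by 0.14 on day 3, gained 0.87 that day.

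On day 3 the remaining 3 overlapped sham. Ctsk gained 0.87 (exact permutation p = 0.0571, adjusted 0.0586), Ctsh -0.35 (p = 0.114) and Ctss -0.39 (p = 0.0571). Ctsh and Ctss fell on Cst3 past the threshold without sham replicate 1 (-0.47 and -0.50), and Ctsk gained past it without day 3 replicate 3 (1.12). The Ctss gain of 0.64 on day 7 did not pass when any of the 4 sham rats was left out (0.53 to 0.72, adjusted p = 0.057 to 0.060). The remaining sham rats and the day 7 rats still did not overlap then.

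**Figure D3:**
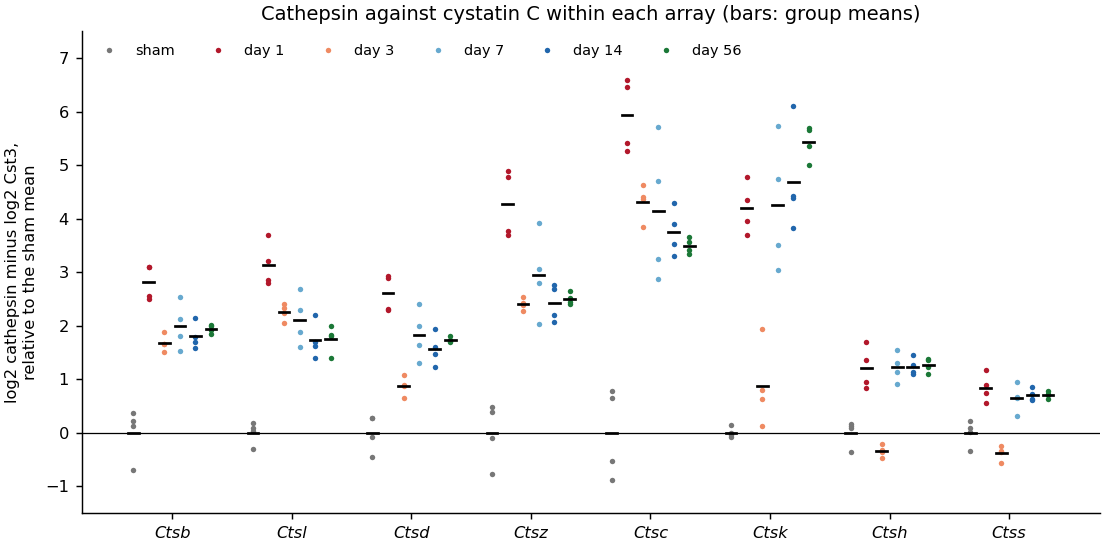
Log2 value of each cathepsin minus that of Cst3 in the same rat, relative to the mean of the sham rats (points, 24 rats for each gene; black bars, group means of 4). For Ctsc the day 1 mean is 5.93 above sham, while for Ctsh and Ctss the day 3 points lie below the sham mean.

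Over the 24 arrays, which share 6 group means, the courses of the cathepsins fell between 2 forms. Ctsl and Ctsz (Pearson r = 0.961), Ctsb and Ctsz (0.960), and Ctsc and Ctsl (0.958) ran closely together, with the highest level on day 1 or close to it and only a partial fall on day 3. Ctsh and Ctss (0.975) shared the other form, with values below sham on day 3 and a plateau above sham from day 7. Ctsc and Ctss were the least alike of the cathepsins (0.126). Ctsd had r = 0.942 with Ctsb and 0.811 with Ctsh, and Ctsk had r = 0.891 with Ctsd and 0.577 with Ctsc. Cst3 ran from -0.517 with Ctsc to 0.666 with Ctss.

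Among all genes measured, the 3 closest in course to each were as follows. Ctsb was most like Cd300a (r = 0.989), Cyba (0.983) and Clec7a (0.983). Ctsl was most like Lyz2 (0.983), Sat1 and Rap1b, and Ctsz was most like Gpx1 (0.982), Ifi30 and Cyba. Cyba, a subunit of the phagocyte oxidase, was near both Ctsb and Ctsz. Ctsc was most like Lrrfip1 (0.980), Litaf and Prr13. Ctsd was most like Laptm5 (0.993), Dpp7 (0.986) and Ctsa (0.979), of which the last 2 encode lysosomal peptidases. Ctsh was most like Apoe (0.977), Ctss and Slc16a7, and Ctss was most like Icoslg (0.980), Ctsh and Bhlhe41, so that each was among the closest genes of the other. Ctsk was most like Card14 (0.976), Klra5 and Tmem140, and Cst3 had the least close companions, Fxyd1 (0.957), Zfp266 and Luzp2.

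Marker transcripts of phagocytes moved with the cathepsins. All 11 markers of microglia and macrophages were higher than sham on days 1, 7, 14 and 56, and 7 were higher and 1 lower on day 3. Their summed level, as log2, was 12.17 to 13.59 in sham rats, 15.62 to 15.95 on day 1, 13.53 to 13.82 on day 3, 15.31 to 16.52 on day 7 and 15.28 to 15.60 on day 56. Among the injured groups it was lowest on day 3, as the 8 cathepsin means were except that of Ctsc. The second Ctsl probe set was instead lowest on day 56, with a mean of 10.26 against 10.79 on day 3. Within the list, Itgam and Fcgr3a were also lowest on day 56, with means of 7.63 and 8.85 against 8.63 and 9.05 on day 3. Laptm5, a lysosomal membrane protein of leukocytes and the gene nearest to Ctsd, was in this list and was 2.48 above sham on day 1, equal to sham on day 3 (0.00) and 2.37 above on day 7. The lysosomal protein Cd68 had a sham mean of 2.94, below the highest control probe set (values 1.43 to 5.18), and had means of 11.93 on day 1, 7.48 on day 3 and 11.70 on day 7, all called higher.

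The 6 measured markers of resident microglia were lowest on day 3, as Ctsh and Ctss were. Their sum was 11.75 to 12.47 in sham rats, 10.10 to 11.05 on day 3 and 12.83 to 13.66 on day 7. On day 3, Tmem119 (-3.61), Gpr34 (-2.73), P2ry12 (-2.68) and Sall1 (-0.99) were lower than sham, and the other 2 were not called. Markers of monocyte-derived macrophages had sums of 11.85 to 13.41 in sham rats, 16.37 to 16.61 on day 1 and 14.93 to 15.72 on day 3, and 7 of the 10 were higher on day 3. This sum was carried by Gpnmb, Spp1 and Lyz2. Their means were 15.12, 14.60 and 14.59 on day 1 and 13.28, 13.98 and 13.42 on day 3. Arg1 and Ly6c of this list went the other way, with means of 10.60 and 4.90 on day 1 and 11.55 and 5.84 on day 3. The chemokine receptor Ccr2, a defining marker, stayed at background in every group, and Cd163 and Ms4a7 were at background on day 3. The neutrophil sum went the other way, from 10.98 to 12.23 on day 1 to 13.22 to 13.72 on day 3, against 6.23 to 6.58 in sham rats. It was carried by S100a8, S100a9 and Lcn2, while Csf3r had a mean of 8.79 on day 1 and 7.11 on day 3, and Camp and Mmp8 were at background on both days, as was Cxcr2 on day 1 (1.97 to 3.75 on day 3). The part of each of these cell types in the cathepsin values was not tested.

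**Figure D4:**
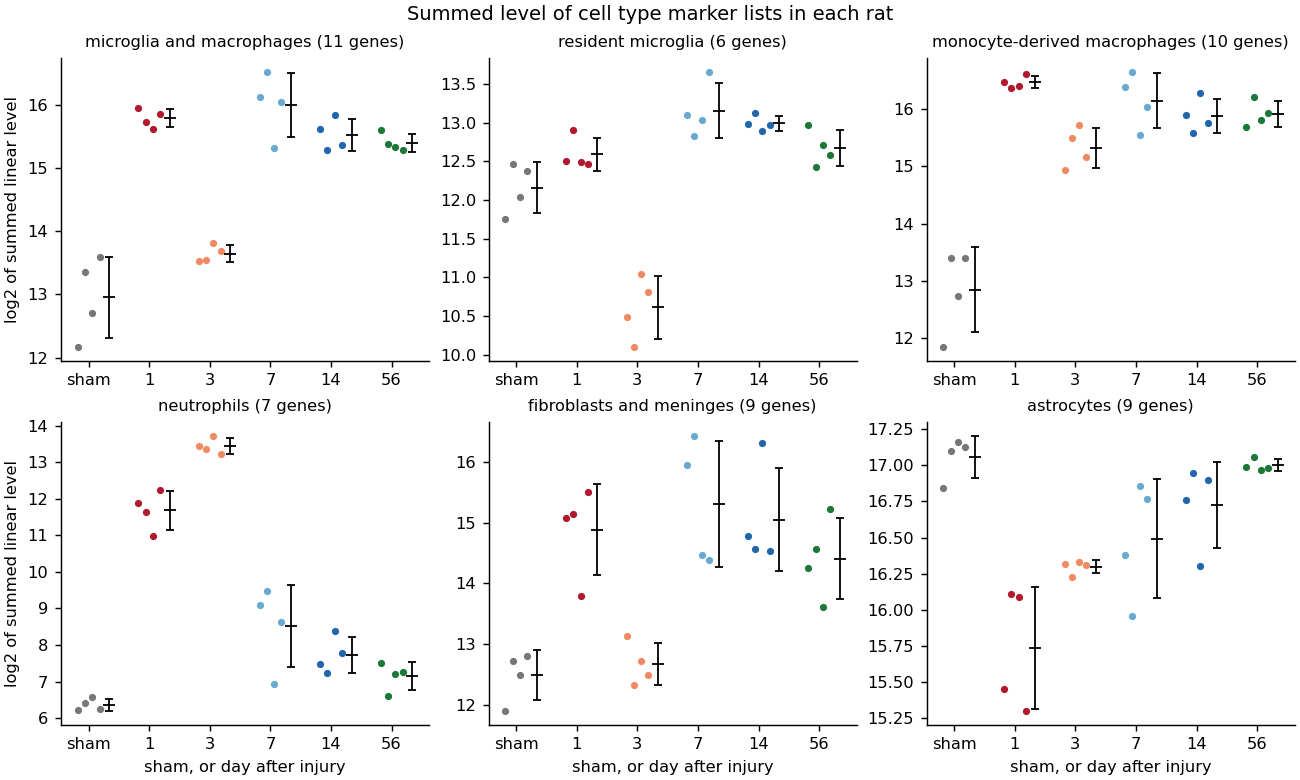
Summed level of 6 lists of cell type markers in each rat (points; log2 of the sum of linear values), with the mean and SD of each group of 4 (bars). The microglia and macrophage and the resident microglia lists dip on day 3, at 13.53 to 13.82 and 10.10 to 11.05, while the neutrophil list peaks there at 13.22 to 13.72.

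Of 9 other cathepsins measured on the array, 2 were higher on day 1, none on day 3, 3 on day 7, 2 on day 14 and 3 on day 56, and 1, 2, 3, 0 and 0 were lower. Of all genes, 28.9%, 23.7%, 23.5%, 15.8% and 16.1% were higher on days 1, 3, 7, 14 and 56, and 20.4%, 16.7%, 30%, 16.3% and 15.9% lower. In this and every other list, a count near these shares says nothing particular about the list. Ctsa, a lysosomal carboxypeptidase that also protects beta-galactosidase, followed the course of Ctsd, at 1.81 on day 1, 0.16 on day 3 (not called) and 1.85 on day 7. Ctso, a cysteine cathepsin, was lower than sham on day 3 (-1.62) and higher on days 14 (0.72) and 56 (0.76). Ctsf, another lysosomal cysteine cathepsin, was lower on day 1 (-0.38) and day 3 (-1.05) and higher on day 7 (0.39). Ctse, an intracellular aspartic protease, was higher on days 1 (1.16), 7 (1.59) and 56 (0.85). The rest, 4 placental cathepsins of rodents and Ctsw, were at background in every group and include the 3 counted as lower on day 7.

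Of the 11 other cystatins and kininogens measured, 1 was higher than sham on every day. This was Cstb, the intracellular cystatin B, at 1.92, 1.11, 1.58, 1.30 and 1.52 on days 1 to 56, with sham rats between 11.37 and 11.60 and injured rats between 12.37 and 13.76. Unlike Cst3, it was called in the same direction as Ctsb and Ctsl each day. Cst6, Cst7 and Kng2 were not called on any day. Another 4 were lower on day 7, with changes between -0.09 and -0.07, and these were at background in every group, as was Cst7. Among 10 further protease inhibitors, 7, 6, 7, 6 and 5 were higher on days 1, 3, 7, 14 and 56, and Spink5 alone was lower, on day 7 (-0.10), at background throughout. The list is broad, and Slpi, an inhibitor of neutrophil elastase, Timp1, an inhibitor of metalloproteases, and the collagen chaperone Serpinh1 do not act on cysteine cathepsins. Slpi was at background in sham rats (mean 3.14) and had means of 11.33 on day 1 and 12.24 on day 3. Timp1 was 4.02 and 4.69 above sham on these days. Serpinb1a, a cytosolic serpin of leukocytes, was highest on day 3 (3.96) and higher on all days. Serpina3n, a secreted serpin, read 6.90 to 9.07 in the day 3 rats and between 1.84 and 2.02, at background, in the other 20.

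Genes for the sorting and maturation of lysosomal proteases were counted in both directions. Of 16, 12 were higher and 2 lower on day 1, 2 and 2 on day 3, 9 and 1 on day 7, 8 and 1 on day 14, and 8 and 0 on day 56. Lgmn, the asparaginyl endopeptidase legumain, which helps to process procathepsins, was higher on every day, at 2.84, 1.60, 2.48, 2.23 and 2.32. Igf2r, the larger mannose 6-phosphate receptor, rose by 2.29 on day 1 and was not called on day 3 (0.52). Dpp7, a lysosomal dipeptidyl peptidase, was 2.22 above sham on day 1, at -0.03 on day 3 and 2.21 on day 7. Sorl1, a sorting receptor of the Golgi and endosome, went the other way, at -2.59, -1.26, -1.87 and -1.21 on days 1, 3, 7 and 14, and at -0.97 on day 56 it was not called.

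The 4 transcription factors of the MiT family that act on lysosomal genes were all higher on day 1, 3 of them on day 3, 2 on day 7, 3 on day 14 and 2 on day 56. Tfec, which is expressed mainly in macrophages, had a sham mean of 3.06, below the highest control probe set (values 2.64 to 3.80), and means of 8.01, 6.03, 7.75, 6.46 and 6.95 on days 1 to 56, all called higher. Tfe3 was higher on every day by 0.42 to 0.63. Tfeb was higher on days 1 (0.28) and 14 (0.32), and Mitf on days 1 (0.34) and 3 (0.73).

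**Figure D5:**
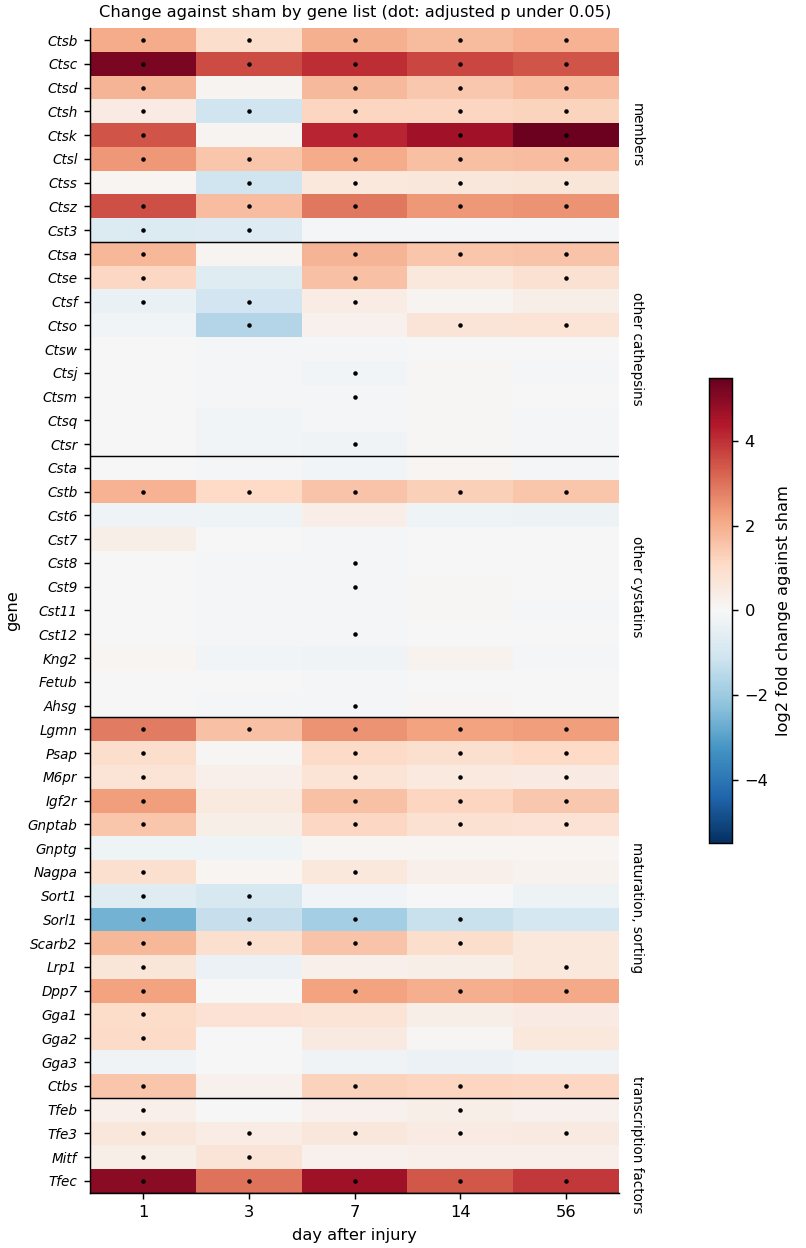
Log2 fold change against sham (colour) of the 9 genes, the other cathepsins, the other cystatins, the sorting and maturation genes and the MiT factors, by day post-injury, with a dot where the adjusted p was under 0.05. The day 3 column is paler than day 1 for Ctsd, Ctsk, Ctsa and Dpp7, while Lgmn, Cstb and Tfec carry a dot on every day.

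Genes tied to single cathepsins were also counted. For Ctss and Ctsl, which act on the invariant chain of class II antigen presentation, 7, 4, 4, 4 and 7 of 10 genes of that pathway were higher on days 1, 3, 7, 14 and 56 and none lower. Ifi30, a lysosomal thiol reductase, was 4.23 above sham on day 1 and higher on all days, as were RT1-DMb (3.79), RT1-DMa (3.75) and Lgmn. Cd74, the invariant chain itself, was not called on any day (1.09 on day 1, -0.12 on day 3 and 1.08 on day 56). For Ctsk, 5 of 10 osteoclast genes were higher on day 1, 0 on day 3 and 4 on each later day. On day 3, 1 was lower (Ostm1, -0.54), and on day 7, 2 were (Mmp9 and Calcr), both at background in every group, as was Tnfsf11. Acp5, the tartrate-resistant acid phosphatase, read at the edge of background in sham rats (3.25 to 3.67, mean 3.46) and had means of 9.57 on day 1, 4.51 on day 3 (not called) and 8.29 on day 7. Tcirg1, a proton pump subunit, Nfatc1, a transcription factor of osteoclasts and lymphocytes, and Clcn7, a lysosomal chloride transporter, were, like Acp5, called higher on days 1, 7, 14 and 56. Tnfrsf11a, the receptor RANK, was not called on any day. For Ctsc, none of 9 measured granule proteases was higher on any day, by limma at the adjusted threshold, and 3 were lower on day 7. Mcpt4 differed most, by 0.32 on day 14. All but Mcpt4 were at background in every group, including Gzmb, Cma1 and Tpsab1, the 3 called, which differed by -0.16, -0.07 and -0.05. The granule proteases Elane, Prtn3, Ctsg and Mcpt2 were not analysed here.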

How the data were processed

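The deposited table holds log2 expression values for 31099 probe sets in 24 samples. Per the study's methods, the authors made them from Affymetrix rat genome arrays with GCRMA, which corrects for probe sequence, and their methods describe a separate pre-processing for every time point. Whether the deposited values were normalized by time point or together was not settled here. Normalization by time point would coincide with the groups compared. Quantile normalization of all arrays together changed no call of the 9 genes against sham. It acts on the finished values and cannot undo a pre-processing by time point, so it does not decide the question. The submitters' processing notes name affy 1.12.2. The labels state no batches. Array medians lay between 4.29 and 4.45. Genes were named from the platform annotation. In it 436 probe sets with several symbols and 9831 with none were left out of gene results.

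Differences were tested with limma 3.58.1 in R 4.3.3 (all 24 arrays, 6 groups, eBayes, 12 contrasts). P-values were adjusted by Benjamini-Hochberg within a contrast over all 20832 probe sets with 1 symbol, at a threshold of 0.05. Cathepsin minus Cst3 was tested by exact permutation. A transcript counted as at background in a group when no rat exceeded 3.50, the highest reading of a control probe set without a target. The scripts were tested on simulated data. Tables and figures used Python 3.11.15 with numpy 2.4.6, pandas 2.3.3 and matplotlib 3.10.9. Of 212 listed genes in 8 pathway and 11 marker lists, 182 were measured. All members were named, with up to 4 genes of largest change in each other list, lists of 5 or fewer in full, further single genes (such as Cd74, Tnfrsf11a and Laptm5) chosen after their values were seen, and the 3 genes most correlated with each member. The members and lists were chosen with earlier results of these data known. Nothing says that the rats shared litters or surgery days, and 4 rats per group limit the precision. A comparison of protein sequences was not run.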

Additional observations from a re-analysis of the deposited data

Results flagged for a closer look

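In 4 of the 54 groups of 4 tested, 1 rat lay far from the other 3, relative to the range of the group. Chance alone marks about 1 group in 20. Ctsc read 9.70 in day 3 replicate 1 against 10.27 to 10.37 in the others, Ctsh 11.96 in day 7 replicate 3 against 12.23 to 12.25, Ctsl 15.09 in day 1 replicate 4 against 14.65 to 14.66, and Ctss 13.59 in day 56 replicate 4 against 13.77 to 13.80. No call of the 9 transcripts against sham changed when any of these rats was left out. In 3 cases the effect against sham was called in opposite directions on different days and the days themselves differed in the same limma fit: Ctsh between days 1 and 3 (-1.53) and between days 3 and 7 (2.24), and Ctss between days 3 and 7 (1.70).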

How the results depend on the processing

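Against sham, 1080 values with 1 array left out and 585 under 13 other alternatives kept their direction and their side of the threshold wherever the change was called. The other alternatives included 2-group fits, a variance trend with intensity, robust eBayes, and a plain t-test without the eBayes step. Arrays were also centred on their medians or quantile normalized together. Further alternatives were a filter on dim probe sets, adjustment over all probe sets, and the replicate number as a block. The rest were the mean or the second probe set of a gene, and 2 sets of arrays left out together that were chosen after seeing the data. Between injured days, the fit of the 2 groups alone left Ctsl from day 3 to 7 (0.53), Ctss (0.50) and Cst3 (0.69) from day 1 to 7 short of the threshold, and 1 member higher from day 1 to 7 in place of 3. The mean of probe sets gave 0.31 for Ctsl from day 3 to 7, and the second probe set gave 0.091 there and -0.57 from day 1 to 3. Without sham replicate 1 and day 7 replicate 3, 4 members were lower on day 14 than on day 7, Ctsb (-0.32), Ctsd (-0.42), Ctsl (-0.52) and Ctsz (-0.80). The replicate numbers did not pair the rats (same-number deviations correlated from -0.686 to 0.46 over 60 pairs of groups, 11 of them over 0.1), and the replicate block changed no call of a member, with 8 members called on day 1. With 1 array left out at a time, these results crossed the threshold for at least 1 array. Ctsl from day 3 to 7 ranged from 0.42 to 0.66. From day 1 to 7, Ctsc ranged from -1.55 to -0.72 and Ctsz from -0.89 to -0.37, with 0 to 2 members lower. From day 7 to 14, Ctsl ranged from -0.52 to -0.28 and Ctsz from -0.80 to -0.28, with 0 to 2 members lower. From day 7 to 56, Ctsk ranged from 0.82 to 1.59, with 0 to 1 members higher. The day 3 differences from Cst3 ranged from -0.47 to -0.30 for Ctsh, -0.50 to -0.31 for Ctss and 0.51 to 1.12 for Ctsk, and the day 7 difference of Ctss from 0.53 to 0.75. The cause of these changes was not tested.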

Other observations

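Of the fibroblast and meningeal markers, which include the collagens on which cathepsin K acts, 7 had their lowest injured mean on day 3, and Fn1 and Postn had it on day 56. Of the 9, 6 were higher than sham on each of days 1, 7 and 14 and 5 on day 56, while on day 3 there were 2 higher and 5 lower. Lum, a proteoglycan that binds collagen, was 2.91 above sham on day 1, at -4.54 on day 3 and 3.51 above on day 7. Dcn, a related proteoglycan, was called on day 3 alone (-4.37). Postn, a matrix protein of wound tissue, was at background in sham rats (mean 3.04). The Postn means were 10.49, 6.96, 10.73 and 8.71 on days 1, 3, 7 and 14, all called higher, and 3.91 on day 56, not called. The summed level of the list spread widely between rats on day 7, from 14.38 to 16.43 as log2, and on day 14, from 14.54 to 16.31. It also did on day 1, from 13.79 to 15.50, and on day 56, from 13.61 to 15.22. Ctsk had its largest SD on day 7 (1.05), as did Ctsc (1.15) and Ctsz (0.63). The part of these cells in the Ctsk values was not tested.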
